A study of Mus musculus with 8 samples.

Results

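The trophectoderm lineage genes are 10 genes whose products specify or mark the trophectoderm, the outer layer of the early mouse embryo that later forms the placenta. The set was named for these roles: Cdx2, Gata3, Tfap2c, Tead4, Yap1, Krt8, Krt18, Id2, Dab2 and Eomes. Entries of the expression tables carry no gene name, so the entry of each gene was chosen by its length, which the values of all libraries of a table give, and not by its level. These lengths were aligned to the exon lengths of GENCODE vM39 genes in identifier order, and a gene was accepted at a posterior probability of at least 0.95. By this rule 9 of the 10 genes were found in the 8-cell table, among 26381 assigned of 31899 entries, and 8 in the morula table, among 22815 of 29202. Tead4 passed at the 8-cell stage (posterior 0.976) but not in morulae (0.885), and Id2 stayed just under the limit at both stages (0.931 and 0.949). Values of the best-placed entries for Tead4 in morulae and Id2 are given as uncertain, and they are left out of every count of members. The other 8 genes had posteriors of at least 0.996. Recovered and annotated exon lengths were equal for Krt8, Krt18, Dab2 and Eomes. They differed most for Tead4, with 3598 bases recovered against 6067 annotated, and for Id2, with 2438 against 2932. The Tead4 entry is therefore uncertain at the 8-cell stage too, although it is counted there by the rule.

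RNA was sequenced from wild-type ICR mouse embryos cultured in KSOM medium, with or without 100 μM trimetazidine (TMZ), an inhibitor of long-chain fatty acid β-oxidation. The 4 groups were 8-cell control, 8-cell TMZ, morula control and morula TMZ, with 2 libraries in each, and TMZ was added at the 2-cell stage. Whole embryos were used, so fewer cells of a type and less RNA per cell cannot be told apart. The labels do not say which embryos entered which library, and all p-values measure only the spread between these libraries.

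Trophectoderm is set apart when outer blastomeres become polarised during compaction. In outer cells the Hippo kinases are held inactive, YAP1 enters the nucleus and binds the DNA-binding factor TEAD4, and this complex switches on Cdx2 and Gata3. CDX2 then keeps the trophectoderm program on and represses pluripotency genes, and the keratins KRT8 and KRT18 pair into the filaments of this first epithelium.

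Values are FPKM, the fragments of a gene scaled to gene length and library total, and levels of different genes are set side by side on this scale. Such comparisons are limited where exon sequence occurs elsewhere in the genome, as 63.9% of the 31-base stretches of Krt8 do. Library totals recovered from the values ran from 31672356 to 64814423 fragments. Both 8-cell TMZ columns carry the same header, so these libraries have no number and are called A and B here. Among embryo markers Dppa3, a maternal and pluripotency factor, was the highest entry of every library. Of the 13 markers of preimplantation embryos all were assigned, a step that uses lengths rather than levels. A length is recovered only from libraries with fragments of the entry, so assignment is not independent of detection. A mean of 1 FPKM or more was reached by 12 at the 8-cell stage and 10 in morulae. Of 14 cumulus and granulosa cell markers, 8 were assigned in the 8-cell table and 7 in the morula table, all below 0.5 FPKM in every library except Amhr2. The summed level of these markers was 13.88 to 19.57 FPKM in 8-cell controls against 8.414 to 8.427 under TMZ. In morulae it was 7.421 to 13.3 against 6.42 to 8.742. These sums are mostly Amhr2, which alone had 19.51 and 13.88 FPKM in 8-cell controls and 8.414 and 8.211 FPKM under TMZ. Blood and fibroblast markers summed to 13.66 to 17.39 FPKM in 8-cell controls against 4.437 to 14.31 under TMZ. Their morula sums were 7.147 to 9.579 FPKM in controls against 6.629 to 8.52 under TMZ. The part of cumulus, blood and fibroblast cells in the results was not tested. The entries assigned to Gapdh (0.938 to 3.03 FPKM over both stages) and Tuba1b (2.07 to 8.17 FPKM) were low for genes abundant in most cells, which leaves a doubt about such assignments even at a high posterior. Those of Actb ran from 292 to 763 FPKM.

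The members lie on 6 chromosomes (GRCm39, GENCODE vM39). Krt8 (chr15:101905133-101912917) and Krt18 (chr15:101936615-101940462) are neighbours on opposite strands, and Dab2 (chr15:6329269-6470196) is on the same chromosome. Gata3 (chr2:9861889-9894845) and Tfap2c (chr2:172391321-172400542) share chromosome 2, and Yap1 (chr9:7932000-8004661) and Eomes (chr9:118307280-118315200) share chromosome 9. Cdx2 is on chromosome 5, Tead4 (chr6:128201251-128277786) on 6 and Id2 (chr12:25143798-25147282) on 12. Whether the counting used strand is not given in the sources used here, so fragments of overlapping genes cannot be told apart. Such overlap covers 10.1% of the exon bases of Eomes, 6.77% of those of Gata3 and 5.16% of those of Krt8, and no more than 2.87% for the other members.

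The proximal promoters of Cdx2, Krt8 and Krt18 are shown because Cdx2 and Krt8 were lower past the threshold in TMZ morulae while Krt18, the partner of Krt8, was not, and because the factors TFAP2C and TEAD4 are themselves among the members. Sequences are from RefSeq (GRCm38.p6), 250 bases before to 50 bases after the start site, 5′ to 3′ on the strand of the gene. Capitals mark matches to GCCNNNGGC, the core letters bound by TFAP2 factors. The TEAD letters GGAATG were searched as well, both motifs on both strands.
Cdx2, chr5:147307200-147307499, minus strand: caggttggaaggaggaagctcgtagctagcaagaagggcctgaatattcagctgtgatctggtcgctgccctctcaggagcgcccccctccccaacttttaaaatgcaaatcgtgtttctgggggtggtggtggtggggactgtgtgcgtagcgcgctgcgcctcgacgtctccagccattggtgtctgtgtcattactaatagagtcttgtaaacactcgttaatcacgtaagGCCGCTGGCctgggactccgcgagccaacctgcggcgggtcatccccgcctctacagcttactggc
Krt8, chr15:102004293-102004592, minus strand: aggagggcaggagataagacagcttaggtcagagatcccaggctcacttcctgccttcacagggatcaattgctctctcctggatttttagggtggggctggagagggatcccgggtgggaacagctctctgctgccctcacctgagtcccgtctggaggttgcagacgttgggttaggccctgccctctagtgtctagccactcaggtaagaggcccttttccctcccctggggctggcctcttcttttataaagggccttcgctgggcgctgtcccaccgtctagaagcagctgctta
Krt18, chr15:102027966-102028265, plus strand: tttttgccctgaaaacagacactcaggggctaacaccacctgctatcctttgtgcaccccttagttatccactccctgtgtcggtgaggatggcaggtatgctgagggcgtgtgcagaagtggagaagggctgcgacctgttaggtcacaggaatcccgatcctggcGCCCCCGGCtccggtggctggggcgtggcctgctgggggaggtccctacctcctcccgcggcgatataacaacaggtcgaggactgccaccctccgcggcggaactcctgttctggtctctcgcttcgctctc

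Cdx2 held 1 match to the TFAP2 letters, with its first base 16 bases before the start, and Krt18 held 1, with its first base 83 bases before it. The window of Krt8 held none, and no window of the 3 held the TEAD letters. Of all 32851 promoters of this length, 16.6% held GCCNNNGGC and 14.7% held GGAATG. Among the other members, Gata3 held 3 TFAP2 matches and Yap1 held 1 match to each motif, while Eomes and Id2 held neither. Of the 2 Dab2 promoters listed, 1 held a match to each motif and the other held neither. Promoters of 8 of the 10 members were in the table, and Tfap2c and Tead4 were not.

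In control embryos the entry placed as Tead4, followed by Tfap2c, had the highest level of the members at the 8-cell stage. Krt18 and Dab2 had the highest levels in morulae. At the 8-cell stage the order of mean levels was Tead4, Tfap2c, Dab2, Krt18, Id2, Krt8, Yap1, Gata3, Cdx2 and Eomes, from 27.31 FPKM down to 0.04798 FPKM. Neighbours from Krt18 to Yap1 in this order overlapped between libraries, and the others did not. In morula controls the order was Krt18, Dab2, Tead4, Tfap2c, Krt8, Cdx2, Id2, Gata3, Yap1 and Eomes. Here Krt18 overlapped Dab2 and Id2 overlapped Gata3.

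**Figure D1:**
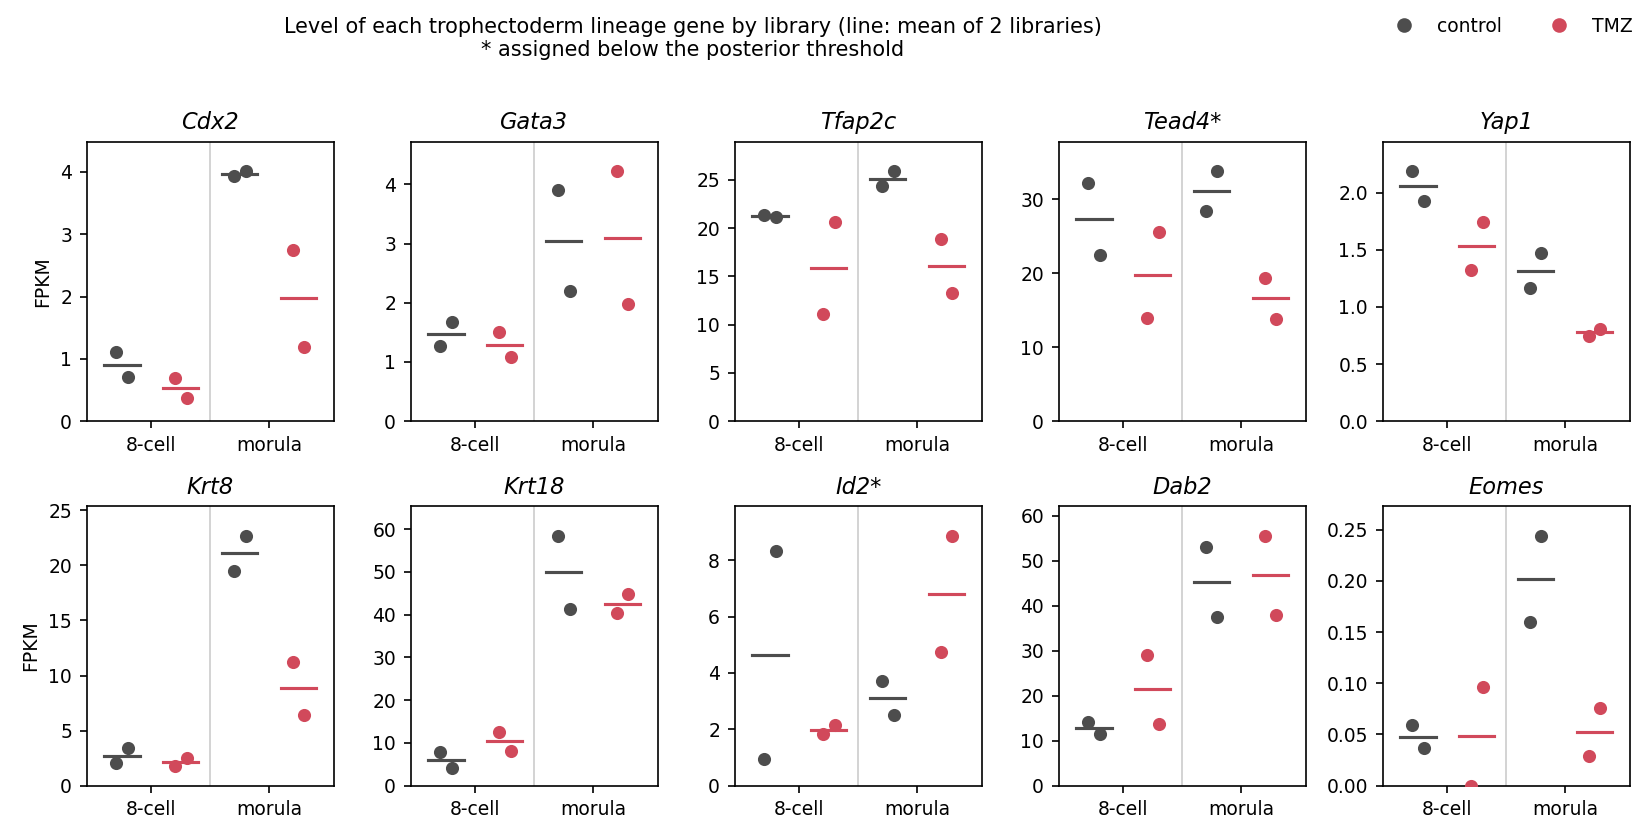
FPKM (vertical axis, from 0, a separate scale for each gene) of the 10 trophectoderm lineage genes in the 8 libraries. Each point is 1 library, grey for control and red for TMZ, and the line is the mean of 2 libraries. Krt8, Krt18, Dab2 and Cdx2 are higher in all morula libraries than in 8-cell controls. In morulae the TMZ points of Cdx2, Tfap2c, Yap1, Krt8, the uncertain Tead4 entry and Eomes, which is near 0 throughout, lie below both control points. Those of the uncertain Id2 entry lie above both. The share of all entries with either order was not computed.

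The control change from the 8-cell to the morula stage compares libraries of 2 tables, so stage and table cannot be told apart, and it is given without a test. A gene is called changed here where the difference of mean log2(FPKM + 1) is over 0.5 and the control libraries of the stages do not overlap. Of the 7 members that were assigned at both stages and averaged 1 FPKM or more, 5 were higher in morulae by this rule (Cdx2, Gata3, Krt8, Krt18 and Dab2) and 0 were lower. Cdx2 reached that average only through the morula libraries, with 8-cell means of 0.9061 FPKM in controls and 0.5337 FPKM under TMZ. Its place among the higher genes is therefore favoured by the filter. Among all 8329 genes compared the same way, 11.5% were higher and 19.4% were lower, and the median difference was -0.08.

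Krt18 and Krt8 had the largest stage differences of the members. The level of Krt18 was 7.938 and 4.241 FPKM in the 8-cell controls and 58.38 and 41.32 FPKM in the morula controls, 8.19-fold higher by the means. Krt8, its filament partner, stood at 2.05 and 3.395 FPKM and then at 19.51 and 22.67 FPKM, 7.74-fold higher. The log2 differences were 2.87 for Krt18 and 2.59 for Krt8, and every morula control lay above every 8-cell control for both. Their order turned without 8-cell control 2 (2.49 and 2.85) and without morula control 1 (2.63 and 2.69).

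Cdx2, the master factor of the lineage, was barely detected at the 8-cell stage, at 1.104 and 0.7079 FPKM, and reached 3.936 and 4.007 FPKM in morula controls. The log2 difference was 1.39. Dab2, an endocytic adaptor of epithelial cells, went from 14.12 and 11.58 FPKM to 53.11 and 37.42 FPKM, a log2 difference of 1.73. Gata3, which acts beside CDX2 downstream of TEAD4, went from 1.262 and 1.671 FPKM to 3.896 and 2.195 FPKM, a log2 difference of 0.69. Without morula control 1 the Gata3 difference was 0.38, under the limit, so this call rests on that library. The other 4 calls held without any 1 control library.

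The upstream regulators were already present and differed less between the stages. Tfap2c, an AP-2 factor active from early cleavage on, had control values of 21.33 and 21.15 FPKM and then 24.35 and 25.88 FPKM, a log2 difference of 0.23. Yap1, the co-activator read out by the Hippo pathway, had 2.184 and 1.922 FPKM and then 1.164 and 1.471 FPKM, a log2 difference of -0.40, with no overlap between the stages. With a pseudocount of 0.1 the Yap1 difference was -0.61, past the limit. The entry placed as Tead4 had 32.22 and 22.4 FPKM and then 28.44 and 33.73 FPKM, which overlapped. Eomes, a T-box factor of later trophoblast, was near 0 throughout, with 5 and 10 fragments in the 8-cell controls and 22 and 34 in the morula controls. The entry placed as Id2 varied more within the 8-cell controls (0.9338 and 8.307 FPKM) than between stages.

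At the 8-cell stage 0 of the 7 assigned members tested passed the threshold of an unadjusted P under 0.05 with a log2 fold change beyond 0.5 (limma on log2(FPKM + 1), entries averaging 1 FPKM or more). Of all 10021 entries tested 6.31% passed it, and 0 had an adjusted p under 0.05. The median log2 fold change of all entries was -0.19, and that of the 7 members was -0.23. Scaling the libraries by median ratios moved the median of all entries to 0.02 and that of the members to -0.06, so the 8-cell values below are to be read against that shift. A mean under 1 FPKM kept Cdx2 and Eomes out of the test.

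Cdx2 stood at 0.6989 FPKM in TMZ library A and 0.3685 FPKM in library B, both below the 8-cell controls. The fragments are few, with 68 and 54 under TMZ against 102 and 52 in the controls. They come from libraries of unlike total, such as 64814423 fragments in library B against 32489992 in control 2. Without the filter on low values the log2 fold change was -0.31 with an unadjusted P of 0.413 by limma.

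The values of the members under TMZ spread widely between the libraries at this stage. Tfap2c had 11.09 FPKM in library A and 20.68 FPKM in library B, against 21.33 and 21.15 FPKM in the controls. Its log2 fold change was -0.46 ± 0.38 (SE), with an adjusted p of 0.832 by limma. Dab2 had 29.11 FPKM in library A and 13.68 FPKM in library B, the latter between its controls.

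Krt18 was above both controls in both TMZ libraries, at 12.66 and 8.128 FPKM, with a log2 fold change of 0.71 ± 0.42 (SE) and an adjusted p of 0.791 by limma. Krt8, with 1.804 and 2.498 FPKM under TMZ, overlapped its controls. The level of Yap1 was 1.318 and 1.743 FPKM under TMZ, below both controls, with a log2 fold change of -0.27. Gata3, at 1.507 and 1.078 FPKM, overlapped its controls.

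The 8-cell result depended on the TMZ library used. Without library B the log2 fold changes were -0.88 for Tfap2c, -0.90 for the entry placed as Tead4, 0.997 for Krt18 and 1.13 for Dab2. Without library A they were -0.04, -0.07, 0.415 and 0.09. All entries shifted as well, with a median of -0.29 without library B and -0.11 without library A. The entry placed as Tead4 had 13.92 FPKM in library A and 25.61 FPKM in library B, the latter between its controls. Id2 had 1.82 and 2.158 FPKM under TMZ, both between its controls.

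In morulae, TMZ-treated embryos had lower levels of Krt8, Cdx2 and Tfap2c than controls. Of the 7 assigned members tested, these 3 were lower past the unadjusted threshold and 0 were higher. Of all 9685 entries tested 10.7% were lower past it and 7.16% were higher, 17.9% in all. No member reached an adjusted p under 0.05, which 3 entries of the table did. The median log2 fold change was -0.38 over these 7 members and -0.08 over all entries, and both scalings gave the same 3 members. Yap1, whose value is this median, averaged 1.318 FPKM in morula controls and 0.7765 FPKM under TMZ. It therefore met the filter of 1 FPKM only through its controls, which favours a lower value under TMZ.

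Krt8 differed most, with 11.23 and 6.434 FPKM under TMZ against 19.51 and 22.67 FPKM in the controls. Both TMZ libraries were lower than both controls, with 721 and 399 fragments against 1262 and 1489. The log2 fold change was -1.21 ± 0.27 (SE), with an unadjusted P of 0.00364 and an adjusted p of 0.167 by limma. It passed the threshold without any 1 of the 4 libraries, with log2 fold changes from -1.57 to -0.85. Krt8 lies on chr15:101905133-101912917 (GRCm39, minus strand), and 63.9% of the 31-base stretches of its exons occur elsewhere in the genome, so its fragments may be shared with near-identical copies. For Krt18 this share was 12.1%.

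Krt18 had 40.35 and 44.78 FPKM under TMZ against 58.38 and 41.32 FPKM in the controls, so the groups overlapped. Its log2 fold change was -0.20 ± 0.21 (SE), with an adjusted p of 0.607 by limma. The ratio of Krt8 to Krt18 was 0.278 and 0.144 in the TMZ libraries and 0.334 and 0.549 in the controls. At the 8-cell stage it was 0.142 and 0.307 under TMZ and 0.258 and 0.801 in the controls, which overlapped.

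Cdx2 had 2.752 and 1.187 FPKM under TMZ, against 3.936 and 4.007 FPKM in the controls. Both values were below the controls, while the TMZ libraries differed from each other by 204 against 85 fragments. The log2 fold change was -0.80 ± 0.30 (SE), with an unadjusted P of 0.0345 and an adjusted p of 0.225 by limma. Without morula TMZ 2 it was -0.41 and no longer past the threshold, and without control 1 or control 2 the unadjusted P was 0.0929 or 0.0997. Without the filter on low values it was 0.0616. The exons of Cdx2, on chr5:147237615-147244091 (GRCm39, minus strand), overlap no other gene.

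Tfap2c had 18.85 and 13.27 FPKM under TMZ, against 24.35 and 25.88 FPKM. Again both TMZ libraries were below both controls. The log2 fold change was -0.63 ± 0.22 (SE), with an unadjusted P of 0.0243 and an adjusted p of 0.21 by limma. It was lost without morula TMZ 2 (log2 fold change -0.40), without control 1 (unadjusted P of 0.0514) and without control 2 (0.0774). Fitting all 8 libraries together gave an unadjusted P of 0.0688 for Tfap2c.

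Yap1 was below both controls as well, at 0.7447 and 0.8083 FPKM against 1.164 and 1.471 FPKM, without passing the threshold. Its log2 fold change was -0.38 ± 0.22 (SE), with an adjusted p of 0.355 by limma. With a pseudocount of 0.1 the log2 fold change of Yap1 was -0.69, with an unadjusted P of 0.161 by limma, and by voom on recovered fragments it was -0.76, with an unadjusted P of 0.0382. Eomes had 4 and 10 fragments under TMZ against 22 and 34 in the controls and was too low to be tested at a mean of 1 FPKM.

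Gata3 and Dab2, both higher in control morulae than in control 8-cell embryos, overlapped between TMZ and control. Gata3 had 4.217 and 1.984 FPKM under TMZ against 3.896 and 2.195 FPKM, with a log2 fold change of 0.00 ± 0.35 (SE) and an adjusted p of 0.996 by limma. Dab2 had 55.49 and 37.97 FPKM against 53.11 and 37.42 FPKM, with a log2 fold change of 0.04 ± 0.26 (SE) and an adjusted p of 0.939 by limma. For both genes the libraries of a group differed more than the groups did, and a missed threshold does not show that the levels were alike.

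Among the uncertain entries, the one placed as Tead4 had 19.31 and 13.85 FPKM under TMZ against 28.44 and 33.73 FPKM, with no overlap. Its log2 fold change was -0.88 ± 0.22 (SE), with an unadjusted P of 0.00598 and an adjusted p of 0.167 by limma, and it passed the threshold without any 1 library. The entry placed as Id2, an inhibitor of basic helix-loop-helix factors, went the other way, with 4.729 and 8.858 FPKM against 3.725 and 2.494 FPKM. Its log2 fold change was 0.89 ± 0.32 (SE), with an unadjusted P of 0.0292 and an adjusted p of 0.216 by limma. This call was lost without morula TMZ 2 (0.50) and without control 2 (0.67), and also without the filter on low values (unadjusted P of 0.0589) and with all 8 libraries in one fit (0.183).

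**Figure D2:**
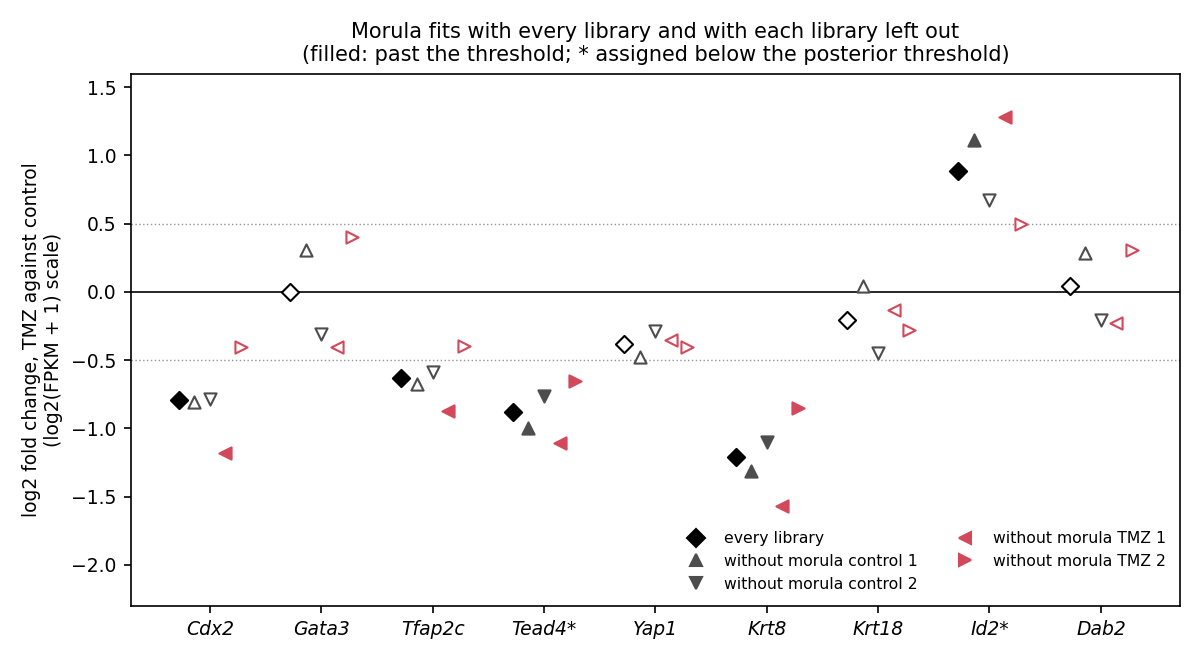
Log2 fold change of TMZ against control in morulae (vertical axis, log2(FPKM + 1) scale) for the 9 tested entries of the trophectoderm lineage genes, with every library (diamonds) and with each library left out (triangles). Filled symbols are past the threshold, and dotted lines mark 0.5 in either direction. Krt8 and the entry placed as Tead4 stay filled in every fit, while Cdx2 and Tfap2c are filled with every library and without TMZ 1.

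The control change and the TMZ effect in morulae share the morula controls, so a high or low control library moves them in opposite directions, and their values are given side by side only. Krt8 had a control change of 2.59 and a TMZ effect of -1.21, and Cdx2 had 1.39 and -0.80. Krt18 and Dab2 had control changes of 2.87 and 1.73 with TMZ effects of -0.20 and 0.04. Tfap2c had a control change of 0.23 and a TMZ effect of -0.63.

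**Figure D3:**
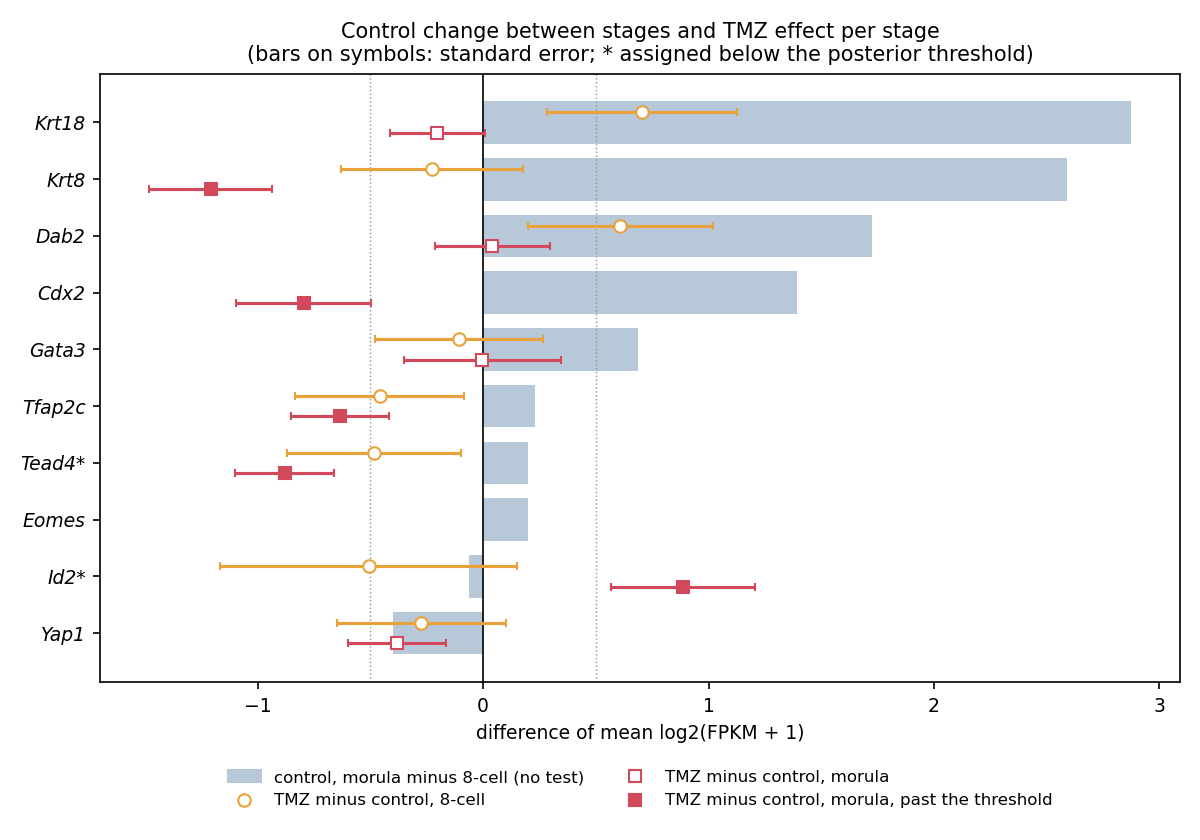
Differences of mean log2(FPKM + 1) (horizontal axis) for each trophectoderm lineage gene. Bars give control morulae minus control 8-cell embryos, circles and squares give TMZ minus control at the 8-cell and morula stage with standard errors, and filled squares are past the threshold. Krt18, Krt8, Dab2 and Cdx2 have the longest bars, but of these 4 genes Krt8 and Cdx2 have a filled square.

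Under TMZ the members were still higher in morulae than at the 8-cell stage where the controls were. The log2 difference from the 8-cell to the morula stage under TMZ was 1.61 for Krt8, 1.96 for Krt18 and 1.16 for Dab2. It was 0.91 for Cdx2, 0.79 for Gata3, 0.06 for Tfap2c and -0.51 for Yap1. The share of all genes that differ between the stages under TMZ was not computed. By means, Krt8 was 4.11-fold higher in morulae under TMZ against 7.74-fold in controls, Krt18 4.09-fold against 8.19-fold, Dab2 2.18-fold against 3.52-fold, Cdx2 3.69-fold against 4.38-fold and Gata3 2.4-fold against 2.08-fold.

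Whether the TMZ effect differed between the stages was tested in a fit over all 8 libraries, as the morula effect minus the 8-cell effect. Of the 7 members tested, 0 passed the threshold, against 7.85% of all 8329 genes, none of which had an adjusted p under 0.05. The largest values were -0.98 ± 0.46 (SE) for Krt8, with an unadjusted P of 0.0624 and an adjusted p of 0.68 by limma, and -0.91 ± 0.46 (SE) for Krt18, with an adjusted p of 0.74. For Cdx2 the value was -0.48 ± 0.45 (SE). Krt8 passed the threshold without 8-cell TMZ library A (-1.14), without 8-cell control 2 (-1.25), without morula TMZ 1 (-1.34) and after median-ratio scaling (-1.08). Krt18 passed it without 8-cell TMZ library B (-1.20) and without 8-cell control 1 (-1.30), and Dab2 without library B (-1.09).

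Genes around the members were read from lists of Hippo pathway components, of other trophectoderm genes and of inner cell mass and pluripotency genes. Of the Hippo pathway and TEAD partners, 17 of 23 were tested at the 8-cell stage and 15 in morulae. At the 8-cell stage 2 of the 17 were lower past the threshold and 0 were higher, where 4.96% of all entries were lower. These were Ccn2, with 1.381 and 0.6148 FPKM under TMZ against 7.016 and 2.367 FPKM, and Ccn1, with 4.086 and 6.121 FPKM against 9.748 and 11.31 FPKM. Both encode secreted matricellular proteins and are classical YAP1 target genes. Their log2 fold changes were -1.41 ± 0.50 (SE) and -0.93 ± 0.38 (SE), each with an adjusted p of 0.771 by limma.

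In morulae 2 of the 15 Hippo list genes were lower past the threshold and 0 were higher, where 10.7% of all entries were lower. Wwtr1, which encodes the YAP1 paralogue TAZ, had 12.31 and 11.59 FPKM under TMZ against 16.74 and 24.38 FPKM, with a log2 fold change of -0.71 ± 0.23 (SE). Nf2, a scaffold that activates the Hippo kinases, had 3.111 and 3.372 FPKM against 5.753 and 6.341 FPKM, a log2 fold change of -0.73 ± 0.21 (SE). Their adjusted p-values by limma were 0.197 and 0.176. TAZ acts with TEAD factors when the pathway is off, and the product of Nf2 turns the pathway on. The list median was -0.31 in morulae and -0.34 at the 8-cell stage, against -0.08 and -0.19 over all entries.

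Of 22 other trophectoderm genes, 7 were tested at each stage, with Plet1 only at the 8-cell stage and Elf3 only in morulae. None passed the threshold at the 8-cell stage, where the median was 0.18. In morulae 3 were lower and 0 were higher, where 10.7% of all entries were lower, with a median of -0.55. Hand1, a helix-loop-helix factor of trophoblast giant cells, had 13.87 and 25.91 FPKM under TMZ against 34.94 and 44.36 FPKM, a log2 fold change of -1.01 ± 0.30 (SE). Klf5, a Krüppel-like factor needed for both early lineages, had 38.34 and 26.74 FPKM against 52.62 and 50.77 FPKM (-0.67 ± 0.21, SE). Fgfr2, the receptor through which trophoblast reads FGF4, had 2.782 and 2.669 FPKM against 4.282 and 4.632 FPKM (-0.55 ± 0.21, SE). Their adjusted p-values by limma ran from 0.185 to 0.225. The tight junction gene Cldn4, which was not past the threshold, stood at 144.7 and 156 FPKM against 151.7 and 161.3 FPKM.

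Of 14 inner cell mass and pluripotency genes 9 were tested at each stage, and in morulae 4 were lower past the threshold and 1 was higher, against 10.7% and 7.16% of all entries. Pou5f1, the core pluripotency factor, had 18.97 and 11.03 FPKM under TMZ against 30.19 and 42.41 FPKM, a log2 fold change of -1.25 ± 0.30 (SE). Nanog, a factor of the epiblast, had 13.92 and 11.87 FPKM against 25.3 and 27.46 FPKM (-0.98 ± 0.19, SE), and Utf1, a chromatin factor of pluripotent cells, had 39.63 and 41.12 FPKM against 68.59 and 86.45 FPKM (-0.92 ± 0.18, SE). Sall4, a zinc finger factor of pluripotent cells, was higher, with 56.76 and 78.3 FPKM against 41.88 and 48.09 FPKM (0.56 ± 0.21, SE). The adjusted p-values of these 4 genes by limma ran from 0.161 to 0.223. The median of the list was -0.40, beside -0.38 for the trophectoderm members, and 0 of these genes passed the threshold at the 8-cell stage.

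**Figure D4:**
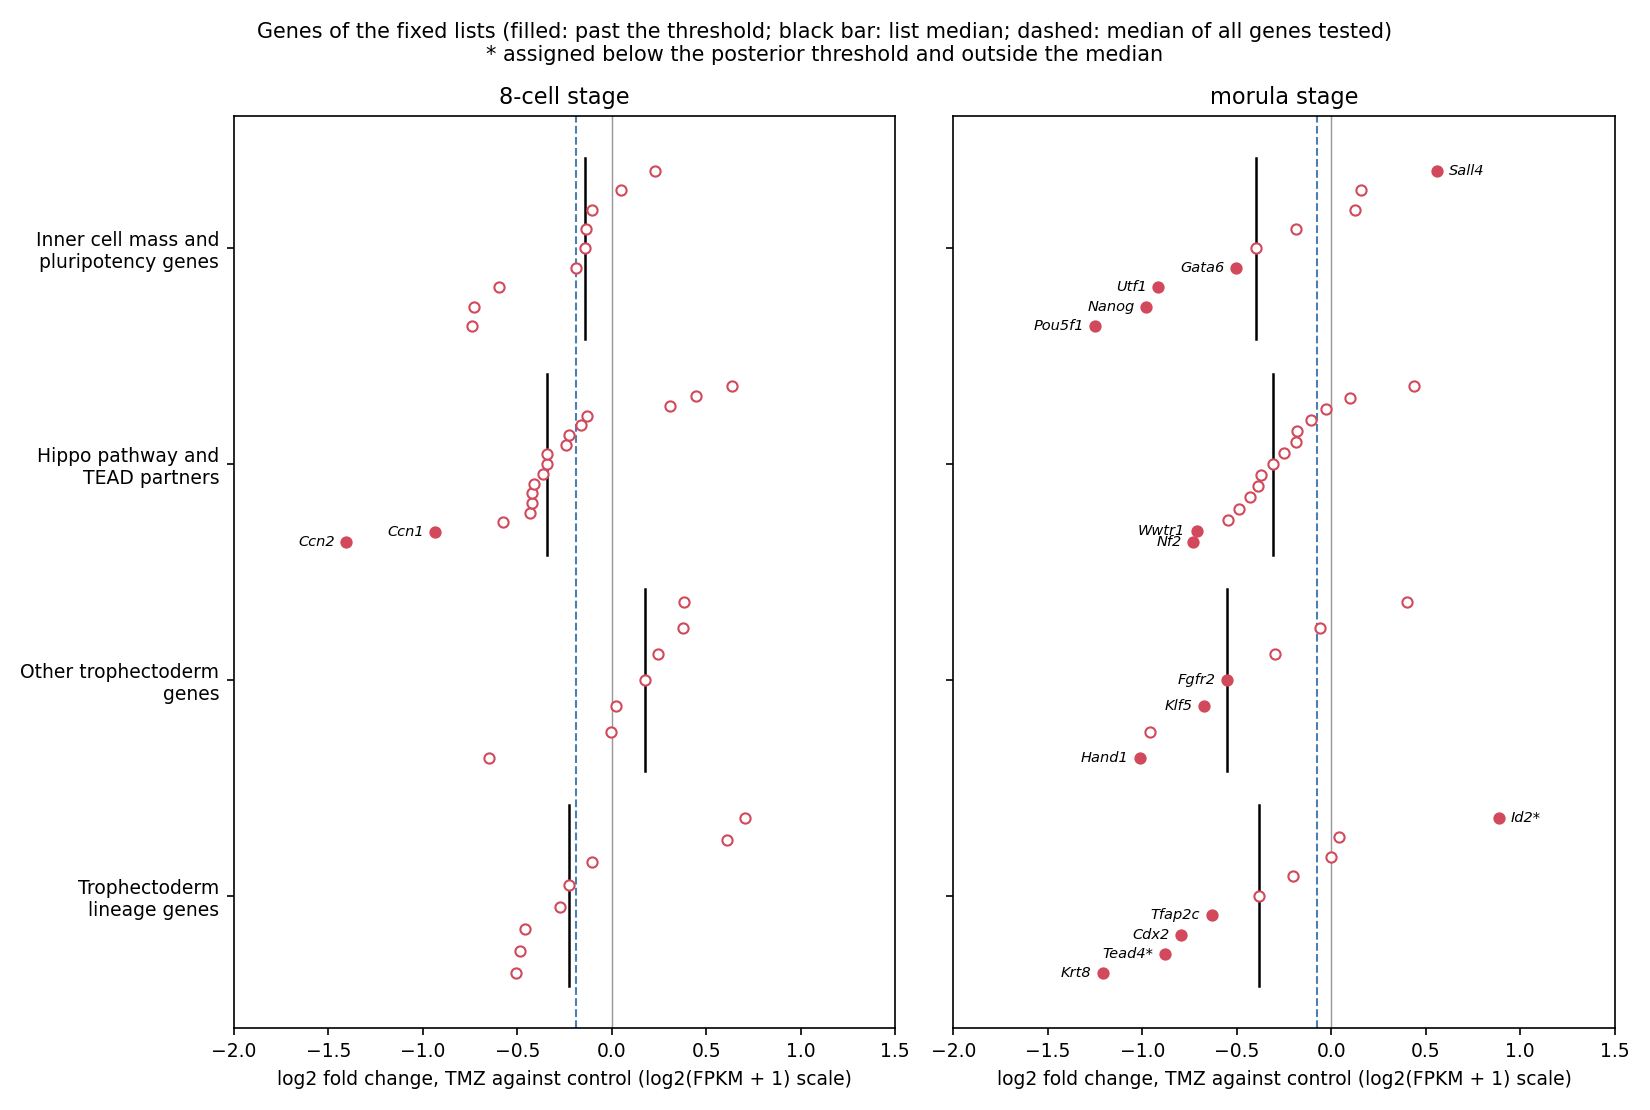
Log2 fold change of TMZ against control (horizontal axis, log2(FPKM + 1) scale) for every tested gene of 4 lists at the 8-cell (left) and morula (right) stage. Each circle is a gene, filled where past the threshold, black bars are list medians and the dashed line is the median of all entries tested. In morulae the 4 list medians lie between -0.55 and -0.31, and at the 8-cell stage the other trophectoderm genes have a median above 0. Except for the inner cell mass list, the genes tested are not all the same at the 2 stages.

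The genes whose profile over the 8 libraries was most like that of Cdx2 were named by the smallest mean absolute difference of centred log2(FPKM + 1) values among 8328 other genes. They were Large2 (0.117), a glycosyltransferase gene, Perp (0.124), which encodes a desmosomal membrane protein, and Gabarapl1 (0.141), a member of the ATG8 family of autophagy. Perp, the most abundant, had 57.9 and 62.4 FPKM in morula controls and 46.7 and 30.4 FPKM under TMZ, against 24.2 and 23.4 FPKM in 8-cell controls. Of the members Gata3 was the closest to Cdx2, at rank 329 of these genes (0.343).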

How the data were processed

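RNA of whole mouse embryos was amplified full length and sequenced, with 2 libraries in each of 4 groups. Per the submitters' processing notes, reads were handled with fastp 0.23.4, STAR 2.7.9a and featureCounts 2.0.6 and the builds GRCm39 and mm39 are named. The authors deposited FPKM values in a table per stage without gene names. The Ensembl release, the strand setting and the handling of fragments with several matches are not given in the sources used here, so antisense and near-identical genes may share fragments. The study's threshold was kept, but its test on counts could not be repeated on FPKM.

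Each FPKM is a whole number of fragments over length and library total, which gave the totals and, up to a whole factor, the lengths. Fragment numbers are therefore the smallest the values allow. A pair hidden Markov model on these lengths placed each entry on a gene, from transcripts with Ensembl numbers up to 250000. With 5671 decoy genes inserted, 10 of 24261 and 9 of 20822 expressed entries went to decoys at the 8-cell and morula stage, a rate scaled to genes of 0.412% and 0.432%. Lengths disagreed for 7 of the 20459 genes placed at both stages, which were left out. A version with 2 passes was tried after low posteriors for Tead4 and Id2 were seen and was dropped for a higher decoy rate.

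TMZ and control libraries of a table were compared with limma 3.58.1 (R 4.3.3, trend) on log2(FPKM + 1), for entries averaging 1 FPKM or more and with no covariate, with Benjamini-Hochberg adjustment over all entries tested. A fold change on this scale understates the change of low genes. The fit was tested on simulated data. The members and lists were chosen with earlier results of these data known. All 10 members are named. Of the other lists, the genes past the threshold are named, at most 3 rises and 3 falls per list and stage by size, and the 3 genes most like Cdx2. Cldn4, Gapdh, Tuba1b, Actb and the ratio of Krt8 to Krt18 were added after their values were seen. Of the blood and fibroblast markers 2 were tested at each stage and 0 passed the threshold. Of the cumulus list Amhr2 was lower at the 8-cell stage (log2 fold change -0.91). Of the preimplantation markers, Tcl1 was lower at the 8-cell stage (-1.26) and higher in morulae (0.96), and Cdh1 was lower in morulae (-0.70). Alternatives were another pseudocount, no filter, median-ratio scaling, all 8 libraries in one fit, voom on recovered fragments, a replicate block, a posterior of 0.99 and leaving out each library. Where a library left out leaves a group with 1, that library is assumed to vary like the others.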

Additional observations from a re-analysis of the deposited data

How the results depend on the processing

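Leaving out a library moved the counts of calls both up and down. The number of entries past the threshold was 632 at the 8-cell stage and ranged from 276 to 1837 with 1 library left out, and from 786 to 1869 in morulae around 1733. For the difference between stages it ranged from 340 to 1214 around 654. Fitting all 8 libraries together gave 1026 at the 8-cell stage and 799 in morulae. The control change stayed within 1.5 times its 2569 genes. Of the members, 0 to 4 passed at the 8-cell stage and 1 to 3 in morulae with 1 library left out, and the cause was not tested. Gata3 had log2 fold changes of -0.11 at the 8-cell stage and -0.0035 in morulae with the values as deposited, and 0.0422 and 0.0654 after median-ratio scaling.

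With 1 library left out, the sign of these members changed within the ranges given. Gata3 ran from -0.242 to 0.0286 at the 8-cell stage, from -0.406 to 0.40 in morulae and from -0.30 to 0.506 for the difference. Krt8 ran from -0.489 to 0.038 and Id2 from -1.64 to 0.626 at the 8-cell stage, Krt18 from -0.449 to 0.0401 and Dab2 from -0.227 to 0.309 in morulae. For the difference, Tfap2c ran from -0.597 to 0.246, Tead4 from -0.814 to 0.0207 and Yap1 from -0.228 to 0.0154. For the 7 tested members assigned at both stages, 158 of 194 alternative fits kept the direction and the side of the threshold, 17 turned the direction, 11 gained a call and 8 lost one.

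The labels do not say whether the replicate numbers pair the morula libraries. The deviations of same-numbered libraries correlated with r = 0.08 over 9685 entries. A correlation from 1 pair of differences cannot decide whether they share a litter, day or batch. With the number as a replicate block 1989 entries passed the threshold, and 229 had an adjusted p under 0.05 by limma, against 3 without the block. The members past the threshold were again Cdx2, Tfap2c and Krt8. Krt8 had an adjusted p of 0.0354 by limma (0.0354 to 0.49 over the alternatives with every library). No paired fit was made at the 8-cell stage, where the TMZ libraries carry no number.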
